A study of Mus musculus with 6 samples.

Results

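The genes described here are the nuclear genes whose symbols start with Nduf, which encode subunits and assembly factors of respiratory complex I. The rule took each row of the deposited count files with such a symbol, which gave 45 genes of 32531 listed. By symbol, 11 form a core group (Ndufs and Ndufv), 27 an accessory group (Ndufa, Ndufb, Ndufc and Ndufab1) and 7 an assembly group (Ndufaf). All 45 passed the filter on low counts.

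The libraries came from the cerebral cortex of adult mice, given no treatment, that all carried the transgene Htr4-EGFP/Rpl10a (line ES1299). In TRAP-seq, ribosomes that hold an EGFP-tagged Rpl10a protein are captured from tissue and their RNA is sequenced; here the tag is named for the serotonin receptor gene Htr4, and it marks the cells in which that 1 transgenic line is active. The submitters call these cells pyramidal neurons, a class that was not checked here beyond the pan-neuronal genes. The study compared RNA captured with antibodies against EGFP (IP, n = 3) with the input RNA (n = 3). The labels do not say whether libraries came from separate or pooled animals, so the p-values rest on a spread between libraries that can be technical. Both input and IP libraries carried 1 index sequence per group, so index and group cannot be told apart.

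Complex I is the entry point of electrons from NADH into the respiratory chain of mitochondria and pumps protons across the inner membrane. Its core subunits carry the flavin and iron-sulfur clusters or form the proton channels, accessory subunits surround and stabilise them, and assembly factors join the modules without staying in the finished enzyme. Neurons draw heavily on this chain to keep ion gradients at synapses and axons. Mitochondrial DNA encodes the proton-pumping core subunits, and 0 of 14 symbols searched for those genes are among the gene rows, so the values below cover the nuclear part only.

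Libraries held 37696125 to 67559533 reads on genes. Levels are in CPM, a gene's reads relative to all gene reads of its library, after TMM scaling, and each log2 fold change compares IP with input. A gene was called at an adjusted p under 0.05 in edgeR's quasi-likelihood test over all 16506 tested genes. The groups differed in their content of cell-type markers, counted here beside 21.3% of all tested genes called higher and 23.4% lower. Pan-neuronal genes summed to between 25247 and 28890 CPM in input and between 37876 and 41139 in IP. Of these 15 genes, 12 were called higher and 1 lower (Map2, log2 fold change -1.18), with a median log2 fold change of 0.48. Snap25 alone had means of 17374 CPM in input and 24267 in IP. All 12 astrocyte, all 12 oligodendrocyte and all 10 microglial markers were called lower. Their sums ran from 4016 to 4612, 1560 to 1708 and 72.4 to 75.7 CPM in input. In IP these sums ran from 843 to 1051, 176 to 198 and 5.70 to 9.20 CPM. Of the astrocyte sum, Slc1a2 alone had means of 3647 CPM in input and 806 in IP. Of 13 endothelial and mural markers 11 were tested and 8 were called lower, with sums of 31.5 to 47.2 CPM in input and 14.3 to 20.0 in IP, and the endothelial receptor gene Tek had 0 reads in every IP library. The part of this shift in the results below was not tested. IP holds RNA captured from tissue and input the RNA before capture, so a lower sum in IP is no count of fewer cells. A smaller share of RNA from a cell type and less marker RNA per cell cannot be told apart by these sums.

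Of the 45 genes, 41 rose in IP and 0 fell. Over all tested genes, 21.3% were called higher and 23.4% lower. The median log2 fold change of the 45 was 1.11, against -0.02 over all tested genes. At 28 of them the rise was at least 2-fold, which held for 4.42% of all tested genes. With the sequencing lane as a block, again 41 rose and 0 fell, against 21.9% and 24% of all tested genes. With total counts in place of TMM, 41 rose and 0 fell, against 25.8% and 20.8%. With total counts without symbols that are sequence numbers, 40 rose and 0 fell, against 16.3% and 27.3%. Every IP library lay above every input library at 41 of the 45, against 26.5% of all tested genes. Together the 45 genes summed to 1881, 1600 and 1411 CPM in input replicates 1 to 3 and to 3369, 3033 and 3478 CPM in IP replicates 1 to 3. The groups did not overlap in this sum, and its mean was 2.02 times higher in IP.

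**Figure D1:**
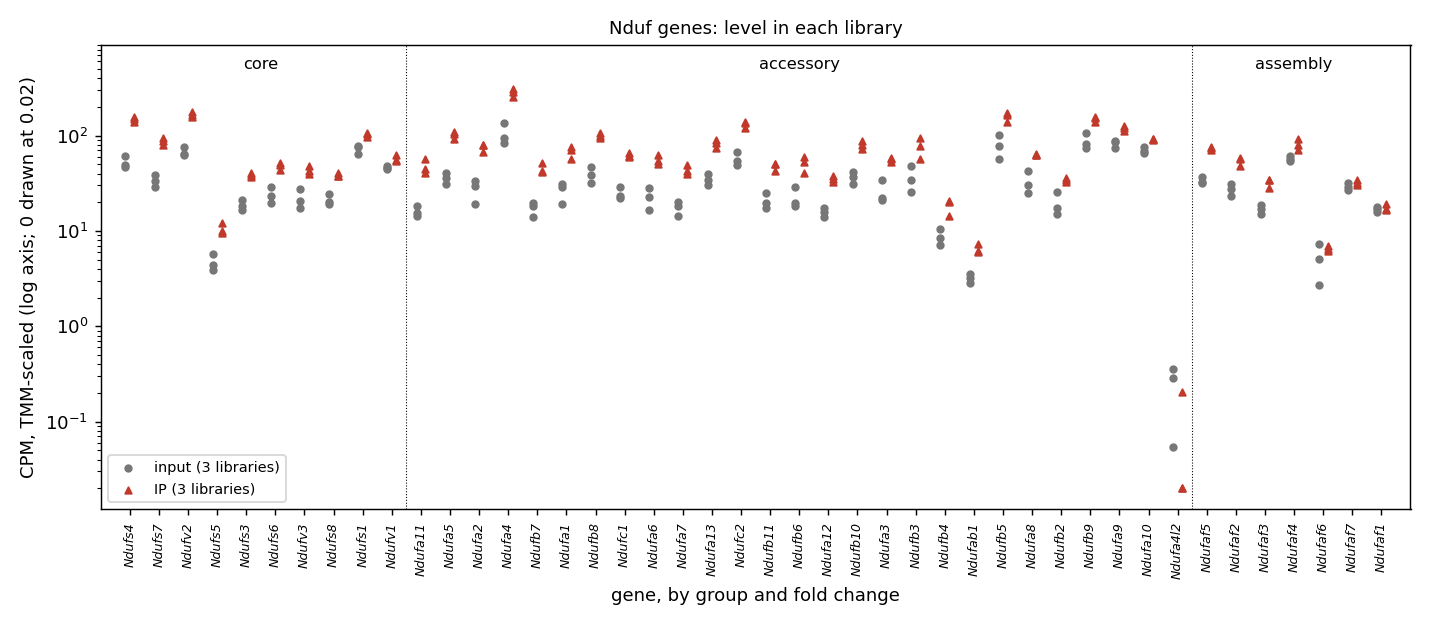
Level of 44 of the 45 Nduf genes in each library, as TMM-scaled CPM on a log axis, with input libraries as grey circles and IP libraries as red triangles. Genes are ordered by symbol group and, within it, by fold change. At 40 genes the 3 triangles lie above the 3 circles, and the exceptions are Ndufa4l2, Ndufaf6, Ndufaf7 and Ndufaf1.

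All 11 genes of the core group rose (median log2 fold change 1.02). Ndufs4 encodes a subunit of the NADH-oxidising module whose loss causes a Leigh-like encephalopathy in mice. It lies on chromosome 13 at 114287795 to 114388258, minus strand (GRCm38, as are the positions below). Ndufs4 had 61.6, 49.4 and 46.7 CPM in the input libraries and 156, 138 and 149 CPM in the IP libraries (log2 fold change 1.49, SE 0.12, adjusted p = 2.3e-06). Each IP library was more than 2-fold above the highest input library for this gene. Ndufs7, which binds the last iron-sulfur cluster before ubiquinone (chromosome 10, 80249121 to 80256794, plus strand), had 38.3, 33.0 and 28.7 CPM in input and 87.2, 79.7 and 93.3 CPM in IP (log2 fold change 1.38, SE 0.13, adjusted p = 7.0e-06). Ndufv2, an iron-sulfur subunit beside the flavin site (chromosome 17, 66078638 to 66101559, minus strand), had 75.7, 64.4 and 62.7 CPM in input and 166, 156 and 176 CPM in IP (log2 fold change 1.30, SE 0.10, adjusted p = 2.5e-06). In both genes the lowest IP library was above the highest input library.

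Ndufv1 and Ndufs1, both core subunits of the matrix arm, had the smallest fold changes of the core group. Ndufv1, which holds the flavin and the NADH site (chromosome 19, 4007384 to 4012806, minus strand), had 44.2, 48.5 and 45.5 CPM in input and 53.9, 56.1 and 62.4 CPM in IP (log2 fold change 0.32, SE 0.11, adjusted p = 0.029). Its groups did not overlap but lay close, and its call was lost under several other analyses given further on. Ndufs1, the largest iron-sulfur subunit, had 78.7, 76.1 and 64.7 CPM in input and 103, 96.2 and 107 CPM in IP (log2 fold change 0.48, SE 0.10, adjusted p = 0.0026). For Ndufs1 as well, every IP library was above every input library, by a smaller margin than for Ndufs4. Between these ends lay Ndufs5, Ndufs3, Ndufs6, Ndufv3 and Ndufs8, with log2 fold changes of 1.19, 1.05, 1.02, 0.995 and 0.86.

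The symbols do not follow the biochemistry exactly, since Ndufs4, Ndufs5, Ndufs6 and Ndufv3 are accessory subunits. The 7 nuclear core subunits proper had a median log2 fold change of 0.86, and 3 of them rose at least 2-fold. The 4 others of the symbol group had a median of 1.10. The 29 accessory subunits by biochemistry all rose, with a median of 1.19, and 23 of them rose at least 2-fold.

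In the accessory group 26 of 27 genes rose (median log2 fold change 1.20). Ndufa11, a membrane-arm subunit (chromosome 17, 56717767 to 56722141, plus strand), had 18.2, 15.5 and 14.4 CPM in input and 44.7, 40.7 and 57.1 CPM in IP (log2 fold change 1.57, SE 0.16, adjusted p = 1.4e-05), the largest fold change of the 45 genes. Ndufa5, a subunit of the ubiquinone module, had 40.9, 35.7 and 30.8 CPM in input and 105, 92.4 and 109 CPM in IP (log2 fold change 1.51, SE 0.12, adjusted p = 3.1e-06). Ndufa2, a small subunit of the NADH-oxidising module, had 33.7, 29.8 and 19.3 CPM in input and 79.3, 67.7 and 78.9 CPM in IP (log2 fold change 1.45, SE 0.18, adjusted p = 6.1e-05). All 3 genes had non-overlapping groups, and in each the lowest input value came from replicate 3. The smallest called changes of the accessory group were those of Ndufa10 and Ndufa9. Ndufa10 had 65.0, 69.7 and 76.4 CPM in input and 90.5, 93.1 and 92.6 CPM in IP (log2 fold change 0.39, SE 0.10, adjusted p = 0.0063). It was unlike most of the 45 in that input replicate 1 was its lowest input library. Ndufa9 had a log2 fold change of 0.54 (SE 0.10, adjusted p = 0.0010).

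By prefix, all 10 Ndufb genes rose, with log2 fold changes from 0.77 for Ndufb9 to 1.39 for Ndufb7 and a median of 1.12. These subunits sit in the distal membrane arm. Both Ndufc genes of the proximal membrane arm rose, Ndufc1 by 1.34 and Ndufc2 by 1.21. Of the 15 Ndufa genes, 14 rose (median 1.27). Sorted by place in the enzyme, the 16 matrix-arm subunits had a median of 1.10 and the 19 membrane-arm subunits a median of 1.19, with ranges of 0.32 to 1.51 and 0.39 to 1.57. The arms therefore spanned nearly the same range. Ndufab1, the mitochondrial acyl carrier protein, which also serves fatty acid synthesis and is present in both arms, rose from 3.18 ± 0.359 to 6.49 ± 0.705 CPM (SD, n = 3; log2 fold change 1.03, adjusted p = 0.0053).

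Ndufa4 and Ndufa4l2 carry the prefix but are not complex I subunits, since the Ndufa4 protein is now assigned to cytochrome oxidase. Ndufa4 had the highest mean CPM of the 45 in IP, with 137, 95.3 and 83.3 CPM in input and 289, 253 and 312 CPM in IP (log2 fold change 1.44, SE 0.16, adjusted p = 3.0e-05). Its paralog Ndufa4l2, a hypoxia-induced gene, had 2, 18 and 14 reads in the input libraries and 0, 0 and 14 reads in the IP libraries. The groups overlapped, and the gene was not called (log2 fold change -1.73, SE 1.33, adjusted p = 0.32). All its IP reads came from replicate 3, and without that library the fitted value was -6.63 (adjusted p = 0.020), a value set by a group at 0 reads and no estimate of size. Leaving both genes out, 40 of 43 rose, and the median stayed at 1.11.

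The assembly group moved less as a group, with a median log2 fold change of 0.50. Of its 7 genes 4 were called higher, against 21.3% of all tested genes. Ndufaf5, a hydroxylase that modifies Ndufs7, had 36.8, 32.9 and 31.7 CPM in input and 74.6, 70.3 and 76.6 CPM in IP (log2 fold change 1.13, SE 0.11, adjusted p = 9.8e-06). Ndufaf2, a factor of the late NADH-module step, had 27.8, 31.2 and 23.0 CPM in input and 57.6, 48.4 and 56.4 CPM in IP (log2 fold change 0.98, SE 0.14, adjusted p = 0.00015). Ndufaf3 had 18.9, 16.9 and 15.1 CPM in input and 28.4, 34.1 and 34.1 CPM in IP (log2 fold change 0.92, SE 0.14, adjusted p = 0.00033). These 3 genes, like Ndufaf4 below, lay within the range of the called subunits (0.32 to 1.57), with no overlap between groups. Ndufaf4, which has the highest CPM of the assembly genes when its transcript length is not taken into account, and is a partner of Ndufaf3 in early assembly, had 56.6, 53.5 and 61.3 CPM in input and 91.3, 71.2 and 79.5 CPM in IP (log2 fold change 0.50, SE 0.11, adjusted p = 0.0041).

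The other assembly genes overlapped between groups and were not called. Ndufaf1, a factor of the membrane-arm intermediate, had 17.1, 15.8 and 17.8 CPM in input and 16.5, 17.1 and 19.3 CPM in IP (log2 fold change 0.06, SE 0.15, adjusted p = 0.76). Ndufaf7, a methyltransferase of the mitochondrial matrix, had 32.0, 28.7 and 26.6 CPM in input and 34.1, 30.2 and 32.2 CPM in IP (log2 fold change 0.15, SE 0.13, adjusted p = 0.37). For both genes the replicates of a group spread as widely as the groups differed. Ndufaf6 had 7.24, 5.13 and 2.68 CPM in input and 7.01, 6.52 and 6.22 CPM in IP (log2 fold change 0.40, SE 0.32, adjusted p = 0.34). Its input libraries spanned a wider range than its IP libraries, which lay inside it.

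**Figure D2:**
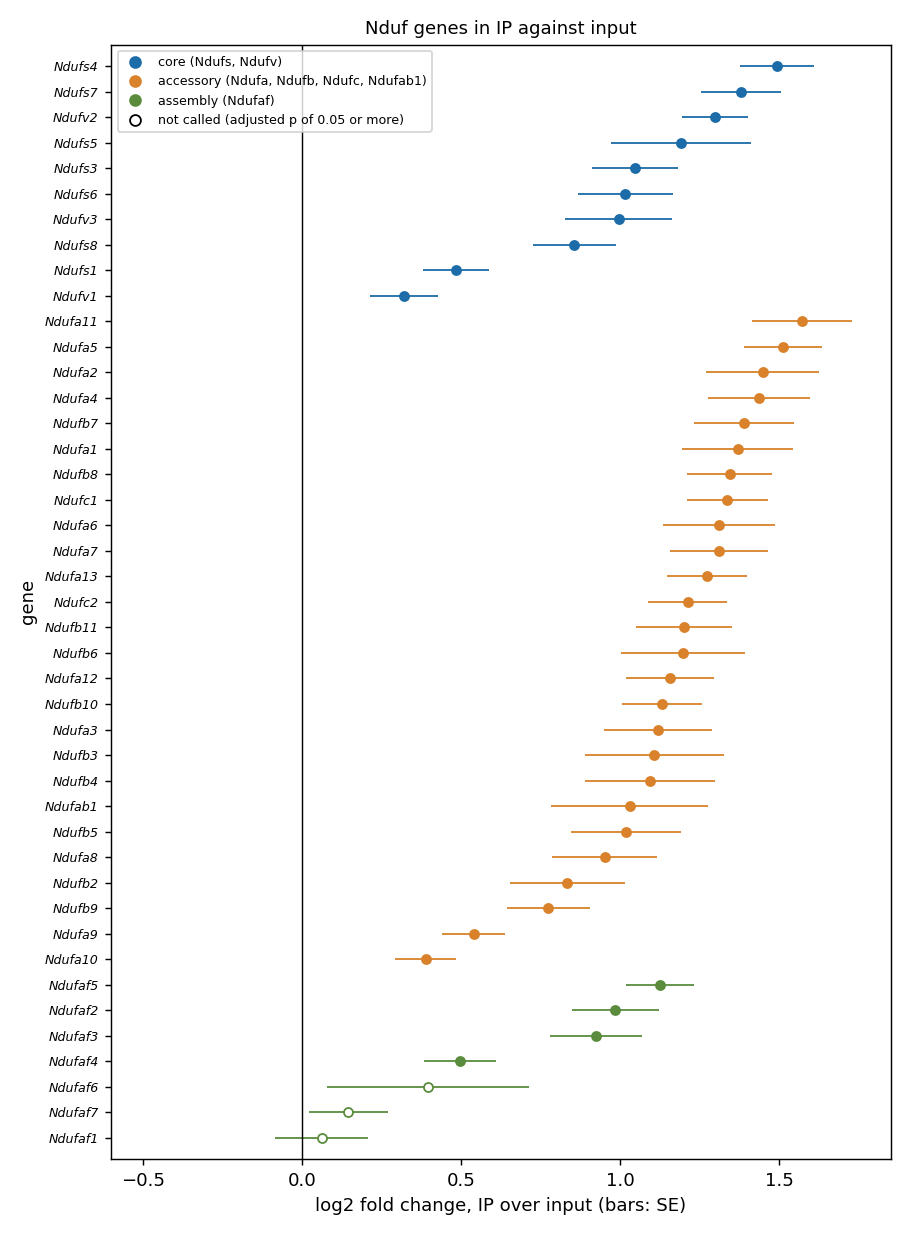
Log2 fold change of IP over input for 43 Nduf genes, with bars for the standard error, coloured by symbol group; Ndufa4l2, with 0 reads in 2 IP libraries, is left out. Filled points passed the test. Ndufv1, Ndufa10, Ndufs1, Ndufa9 and Ndufaf4 are the filled points with values from 0.32 to 0.54, and the open points are Ndufaf6, Ndufaf7 and Ndufaf1.

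The balance between the groups differed between input and IP in every library. Over the 44 genes with at least 10 reads in each library, the mean log2 CPM of accessory genes exceeded that of assembly genes by 0.42 ± 0.09 in input and by 0.98 ± 0.06 in IP (SD, n = 3). The input values ran from 0.34 to 0.52 and the IP values from 0.91 to 1.03, with no overlap. Core genes exceeded assembly genes by 0.61 ± 0.04 in input and 0.97 ± 0.05 in IP. By symbol group, accessory genes were below core genes by this measure in every input library (-0.19 ± 0.07), while in IP the difference was 0.01 ± 0.04. Grouped by biochemistry, accessory subunits were below core subunits in every library, with -0.79 ± 0.12 in input and -0.48 ± 0.07 in IP. CPM was not divided by transcript length here. These differences are within libraries and do not depend on how libraries are scaled to each other. They are given with no test, since the groups hold few genes, and genes are not replicates.

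Complex I factors whose symbols do not start with Nduf were also mixed. Of 10 such genes with a row, 5 rose and 0 fell (median log2 fold change 0.55), against 21.3% and 23.4% of all tested genes. Ecsit rose from 10.6 ± 1.25 to 22.5 ± 1.99 CPM, and Tmem70 from 30.1 ± 1.99 to 54.6 ± 6.48. Timmdc1, Tmem126b and Lyrm2 were the other risers, with log2 fold changes of 0.79, 0.66 and 0.94. Acad9, which works with Ndufaf1 and Ecsit, had 10.3, 12.8 and 12.8 CPM in input against 9.99, 10.1 and 11.2 CPM in IP, with overlapping groups (log2 fold change -0.20, adjusted p = 0.37). Tmem186, Aifm1, Nubpl and Foxred1 were not called either, with log2 fold changes of 0.01, 0.22, 0.43 and 0.44.

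Of the 38 listed nuclear subunits of complexes II to V, 34 were called higher and 0 lower. Over all tested genes the shares were 21.3% and 23.4%. The median log2 fold change of the 38 was 1.03. The 38 Nduf genes of the core and accessory symbol groups were close, with 37 called higher and a median of 1.14. They include Ndufa4 and Ndufa4l2. By biochemistry, all 7 core and all 29 accessory subunits of complex I were called higher, with medians of 0.86 and 1.19. By complex the medians were 0.85 (II), 1.07 (III), 1.11 (IV) and 1.10 (V). Genes of these complexes with small called values were Sdha, the flavin subunit of complex II, with 0.34, Atp5a1 and Atp5c1, the ATP synthase alpha and gamma subunits, with 0.36 and 0.43, and Uqcrc2, a complex III core protein, with 0.48. Those not called were Cyc1 (0.19), Atp5b (-0.03), Atp5g2 (-0.83, SE 0.71) and Atp5l (-0.85, SE 0.79). Atp5g2 and Atp5l had low levels, with means of 0.51 and 0.36 CPM in input and 0.28 and 0.20 CPM in IP. Their fold changes are therefore uncertain. Near-identical copies were searched for the Nduf genes only, so a loss of reads from Atp5g2 and Atp5l was not tested. No test of a difference between complex I and the other complexes was made.

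Levels between genes were compared per kilobase of transcript. In IP these ran from 467 CPM per kilobase for Ndufa4 through 213 for Ndufb9 and 197 for Ndufc1 down to 1.86 for Ndufab1 and 0.0732 for Ndufa4l2. In input the order opened with Ndufa4 (172), Ndufb9 (124) and Ndufc2 (83.4). The lowest subunits, Ndufab1, Ndufs5 (20.1 in IP) and Ndufb4 (19.0), each have a near-identical copy elsewhere in the annotated transcripts, as do Ndufa12, Ndufb11, Ndufs3 and Ndufs6. Reads that align to several places made up 21.1% to 23.3% of the listed reads in input and 32.9% to 35.7% in IP and are listed apart from the genes, so the levels of these 7 genes are uncertain. Their log2 fold changes lay between 1.02 and 1.20 with a median of 1.09, against 1.11 for the other 38. A further limit is that the strand setting of the counting is not given. In 16 genes some exonic bases are shared with another gene, most in Ndufb6 (39.0%, with Smim27 on the other strand), Ndufa13 (30.0%) and Ndufb9 (28.6%). The 29 genes with no shared base had a median of 1.13, and 26 of them rose.

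The size of the rise fell with transcript length. Lengths ran from 315 bases for Ndufc1 to 3632 for Ndufaf4, with a median of 892, whereas the median over all tested genes with a length was 2946. Across the 44 genes with at least 10 reads in each library, Pearson's r between log2 length and log2 fold change was -0.57 and Spearman's rho -0.53, as a description over genes that share the same 6 libraries. Across 14965 tested genes the same measures were -0.07 and -0.24. The 16 Nduf genes under 700 bases had a median log2 fold change of 1.31, against 0.22 over all 411 tested genes of that length. The 10 of at least 1500 bases had a median of 0.50, against -0.01 over 12530 genes. These 10 include the assembly genes Ndufaf4 and Ndufaf7, and the 8 core and accessory genes among them had a median of 0.75. Under 700 bases, the 15 core and accessory genes had a median of 1.31. Ndufs4 and Ndufv2, at 1698 and 1697 bases, departed from this order with 1.49 and 1.30, while Ndufv1, at 1661 bases, had 0.32.

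**Figure D3:**
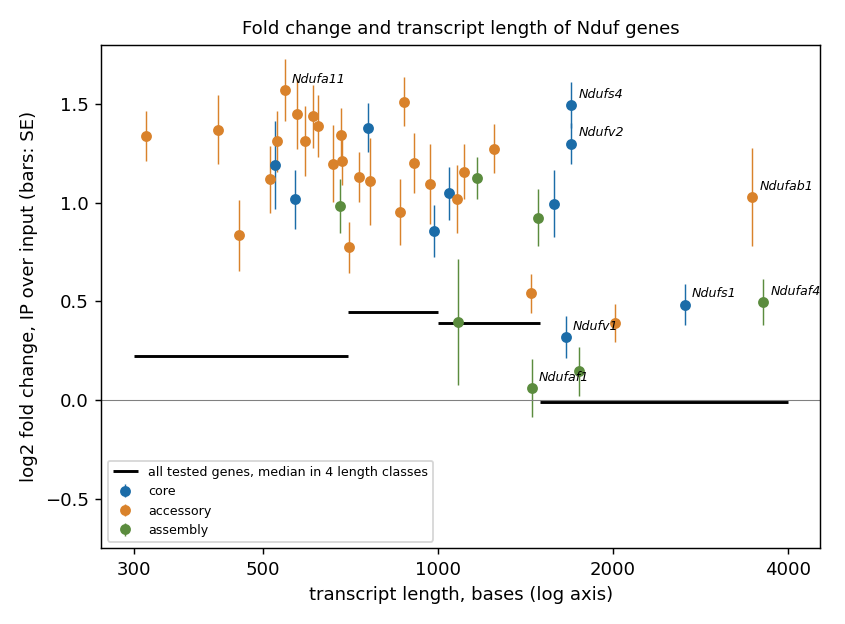
Log2 fold change of IP over input against transcript length (log axis) for 43 Nduf genes, with standard errors; black lines give the median over all tested genes in 4 length classes, the last open above 1500 bases. The class medians of the Nduf genes (1.31, 1.11, 1.02 and 0.50) fall with length and are above the lines (0.22, 0.45, 0.39 and -0.01). Single genes depart from this order, as Ndufs4 and Ndufv2, at 1698 and 1697 bases, have 1.49 and 1.30.

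With an offset that takes out the smooth relation of each library to length and GC content, which moved the median of all genes to 0.37, 42 Nduf genes rose and 0 fell. The background shares were then 42.9% higher and 13% lower. Relative to the median of all genes, the accessory, core and assembly medians were 1.05, 0.71 and 0.59 with the offset and 1.21, 1.03 and 0.51 without it. The order of the groups was kept, and the gap between core and assembly genes was smaller. With a robust form of the offset, chosen after seeing the data, these values were 0.94, 0.62 and 0.52, and 40 rose and 0 fell, against 27.8% and 17.5% of all tested genes.

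Fewer genes were called higher under 1 other scaling. In the main analysis the log2 fold changes of the 15 pan-neuronal genes ran from -1.18 (Map2) to 1.43 (Vsnl1). When libraries were scaled so that the mean log2 CPM of these 15 genes was level, the median of all genes moved to -0.52. Then 32 of the 45 rose and 2 fell, against 5.15% called higher and 45.9% lower over all tested genes. Under this scaling the medians were 0.69 for accessory, 0.51 for core and -0.01 for assembly genes. The 2 that fell were Ndufaf1 (-0.45, adjusted p = 0.021) and Ndufaf7 (-0.36, adjusted p = 0.039). Ndufa10, Ndufs1, Ndufv1, Ndufaf4 and Ndufaf6 also changed sign without being called, and Ndufa9, Ndufab1, Ndufb2 and Ndufb9 were positive but not called. In all, 32 genes were called higher in the main analysis and in all 18 alternatives.

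**Figure D4:**
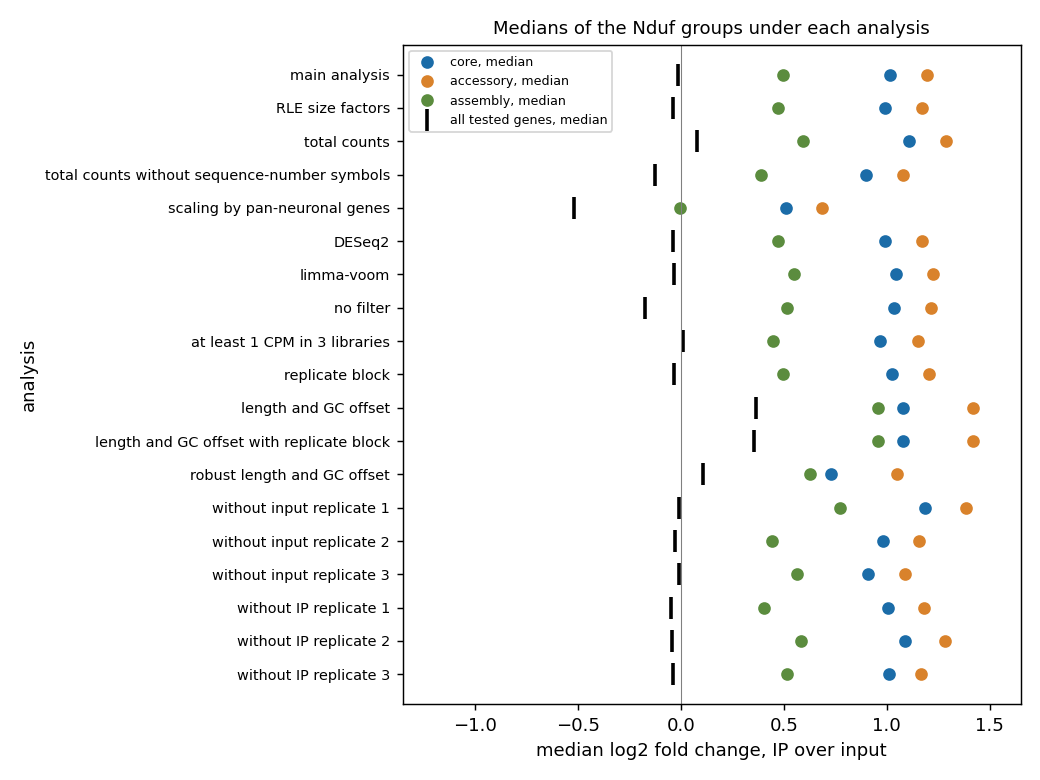
Median log2 fold change of the core, accessory and assembly groups (coloured points) and of all tested genes (black ticks) in the main analysis and 18 alternatives. Accessory genes are highest and assembly genes lowest in each row; scaling by pan-neuronal genes brings the assembly median to -0.01.

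The Nduf genes also varied together between libraries of 1 group. Input replicate 1 was the highest input library for 38 of 44 genes and input replicate 3 the lowest for 38 of 44, where over all tested genes these shares were 34.6% and 34.8%. In IP, replicate 2 was the lowest for 34 of 44 genes, against 35.4% of all tested genes. Pairing libraries by their shared sequencing lane, the median log2 fold change of the 45 genes was 0.84, 0.98 and 1.43 in lanes 1, 2 and 3. The accessory group gave 0.99, 1.07 and 1.51, the core group 0.77, 0.92 and 1.29, and the assembly group 0.58, 0.41 and 1.08. The medians were above 0 in every lane and highest in lane 3. The subunits of complexes II to V showed the same spread, with 0.80, 0.89 and 1.37.

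Promoter sequence was looked at because the genes moved together. RefSeq promoters (GRCm38.p6, 250 bases before to 50 after the start) matched 39 of the 45 symbols. Nuclear respiratory factor 1 (NRF1) is a known activator of respiratory chain genes, and its motif, GCGCA, then any base, then GCGC, searched on both strands, was present in 9 of 39 (23.1%), against 10.4% of all tested genes with a promoter. The median log2 fold change was 1.13 for these 9 genes and 1.12 for the other 30. The 4 windows below are shown because they lie upstream of the annotated gene. They carry the motif, with T, C or G at the free base, in members of all 3 symbol groups. Their fold changes run from the largest (Ndufa11) to a small one (Ndufaf4). Ndufs5, of the core group by symbol, is an accessory subunit. They are on the strand of the gene, with the motif in capitals, at chr17:56717677-56717736 (plus), chr4:24897945-24898004 (plus), chr16:37654525-37654584 (minus) and chr4:123718250-123718309 (minus).
Ndufa11: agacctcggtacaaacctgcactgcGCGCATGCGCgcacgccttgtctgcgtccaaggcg
Ndufaf4: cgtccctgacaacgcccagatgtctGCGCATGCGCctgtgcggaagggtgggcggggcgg
Ndufb4: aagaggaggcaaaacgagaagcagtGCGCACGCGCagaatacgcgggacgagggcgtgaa
Ndufs5: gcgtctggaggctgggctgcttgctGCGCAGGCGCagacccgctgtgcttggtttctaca
The motif starts 60, 113, 191 and 98 bases before the RefSeq start of these 4 promoters, which for Ndufa11, Ndufb4 and Ndufs5 differs from the start in the annotation that gave the gene positions, and Ndufb4 has 3 copies in all.

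Other motifs were searched on both strands and counted separately, whether or not they overlapped another motif. The YY1 motif AAGATGGCG was in 5 of 39 promoters (12.8%, against 3.14% of all tested): Ndufa9, Ndufc1, Ndufs4, Ndufs6 and Ndufs7. The cAMP response element TGACGTCA was in 3 (7.69%, against 3.44%): Ndufa10, Ndufa11 and Ndufb2. The ETS motif CCGGAAGT was in 1, Ndufs3 (2.56%, against 7.94%), the estrogen-related receptor motif TCAAGGTCA in 0 (against 0.344%) and the TATA motif TATAAA in 4 (10.3%, against 9.1%): Ndufa3, Ndufa7, Ndufb7 and Ndufs7. These are matches of letters in a window, not measured binding.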

How the data were processed

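Each deposited file lists 1 library's raw read counts by gene symbol, which the authors made with STAR 2.0.0e and HTSeq on mm10, per the submitters' processing notes. For HTSeq, the version, strand setting and gene annotation are each not given in the sources used here. The 6 rows naming no gene entered neither library sizes nor tests. Reads outside genes made up 16.7% to 18.1% of listed reads in input and 8.60% to 8.92% in IP, and reads matching several genes 8.12% to 9.83% and 1.77% to 1.91%. A floor of 3 reads lies at 0.0444 to 0.0796 CPM and covers counting error only. Libraries of a group differed by a chi-square per degree of freedom of 22.0 to 65.2, more than sampling noise.

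The main test was edgeR 4.0.16 (R 4.3.3) with quasi-likelihood, TMM, filterByExpr and a group term, Benjamini-Hochberg adjusted over all 16506 genes, two-sided. SE was derived from the test statistic. Each replicate number stands for 1 lane, named in the labels, that held an input and an IP library, which is where the pairing comes from. Deviations from the group means had r = 0.13, 0.09 and 0.05 within lanes over all tested genes. Between lanes r ran from -0.083 to 0.007. Deviations from a mean of 3 libraries sum to 0, so values within and between lanes depend on each other. The library index coincides with the group, so index and group cannot be told apart. Alternatives were DESeq2 1.42.0, limma-voom (limma 3.58.1), other scalings and filters, the replicate block, length and GC offsets (the robust one added after seeing the data) and leaving out each library. Lengths and GC came from GENCODE M21 principal transcripts, matched for all 45 members, and near-identical copies are transcripts of other genes with at least 95% identity over 300 bases. Any Nduf gene could be named, with full values by rule for the 3 called genes with the largest rise in each symbol group, the most abundant, every gene called lower or not called, Ndufa4 and Ndufa4l2, and so could genes of the respiratory and marker lists. Full values of Ndufv1, Ndufs1, Ndufa9, Ndufa10 and Ndufab1 were added after their values were seen. The values of 1 member are not reported here; it stays in the fits, counts and medians. Members and lists were chosen with earlier results of these data known.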

Additional observations from a re-analysis of the deposited data

How the results depend on the processing

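Of 791 values for 44 single genes under the alternatives, 767 kept their direction and side of the threshold, 15 were no longer called, 5 became called and 10 changed sign, of which 6 also crossed the threshold. The count of Nduf genes called higher was 32 to 42 (41 in the main analysis), and 40 to 41 when 1 library was left out, against 15.8% to 19.9% of all tested genes. The count called lower was 0, except 2 when scaled by pan-neuronal genes and 0 to 1 over the fits that left out 1 library (1 without IP replicate 3, Ndufa4l2). With the replicate block, which uses the lane pairing, 41 rose and 0 fell, with a median of 1.12, and no call of an Nduf gene changed.

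Scaled by pan-neuronal genes, the medians were 0.60 over all Nduf genes, 0.51 for core, 0.69 for accessory and -0.0058 for assembly genes, and 2 of the other complex I genes were called higher and 1 lower, against 5.15% and 45.9% of all tested genes. Values for genes that changed sign under it were -0.12 (Ndufa10), -0.45 (Ndufaf1), -0.0058 (Ndufaf4), -0.11 (Ndufaf6), -0.36 (Ndufaf7), -0.0228 (Ndufs1) and -0.19 (Ndufv1). Ndufaf1 was also negative with total counts without sequence-number symbols (-0.0499), with the robust length and GC offset (-0.13) and without IP replicate 3 (-0.0016, in a range up to 0.115 over the fits that left out 1 library). With the length and GC offset the assembly median was 0.96 (0.96 with the replicate block as well) and 8 other complex I genes were called higher (7 with the block), against 42.9% of all tested genes. With the robust offset the core median was 0.73. Leaving out 1 library gave medians of 1.01 to 1.25 (all), 0.91 to 1.19 (core), 1.09 to 1.38 (accessory) and 0.41 to 0.77 (assembly), and 5 other complex I genes in each fit; without input replicate 1 the assembly median was 0.77 in place of 0.50, and without input replicate 3 it was 0.56.

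Ndufv1 was called in the main analysis but not without input replicate 1, 2 or 3 or IP replicate 3 (adjusted p = 0.070, 0.057, 0.065 and 0.089), with the filter of 1 CPM (adjusted p = 0.054), with total counts without sequence-number symbols (adjusted p = 0.14) or with the robust offset (adjusted p = 0.65). Ndufaf7 was called higher with the length and GC offset (adjusted p = 0.0098). The cause was not tested. Depth was lowest for Ndufa4l2, with 0 to 18 reads per library. Ndufab1, Ndufaf6 and Ndufs5 had 130 to 423, 131 to 455 and 188 to 819 reads, with SE of 0.25, 0.32 and 0.22. The part of depth in these errors was not tested.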
